A study of Mus musculus with 4 samples.

Results

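The genes described here are 9 transcription factor genes of the apical ectodermal ridge and limb ectoderm: the distal-less homeobox genes Dlx1, Dlx2, Dlx3, Dlx5 and Dlx6, the zinc finger genes Sp6 and Sp8, the engrailed gene En1, and Trp63, which encodes p63. Every probe set that the platform annotation assigns to exactly 1 of these genes was taken, which gave 16 of the 45101 probe sets on the array. That rule uses no measured value, but the genes were listed with earlier results of these data known. RNA came from the autopod, the part of the limb bud from which hand and foot skeleton will form, in C57BL/6 mouse embryos at E11.25. The Hox13dKO group comprised 2 samples from embryos homozygous both for a Hoxa13 null allele and for HoxDdel, a deletion of Hoxd11, Hoxd12 and Hoxd13 together. The wild type group comprised 2 samples. The piece cut out was the Hoxd13-expressing region of fore- and hindlimb buds, so each value averages over both limbs and over ectoderm and mesenchyme. The titles name the arrays of each genotype biological replicates without stating the number of embryos behind each, so the p-values measure the spread between these samples.

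The apical ectodermal ridge is a thickened strip of epithelium at the tip of the limb bud, and its FGF signals keep the mesenchyme beneath it growing. p63 maintains the surface ectoderm from which the ridge forms, and mice without it lack normal limbs. Sp6 and Sp8 act in the ectoderm upstream of Fgf8, Dlx5 and Dlx6 together keep the ridge intact, and En1 marks the ventral ectoderm, where it keeps Wnt7a off. Dlx genes lie in linked pairs, here Dlx1 beside Dlx2 on chromosome 2, Dlx5 beside Dlx6 on chromosome 6 and Dlx3 beside Dlx4 on chromosome 11.

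The targeted genes separated the groups as labelled, and all 4 passed the test as lower. Hoxd13 read 5.79 and 9.58 signal units in Hox13dKO against 14540 and 16117 in wild type. Signal remained for others: Hoxd11, although deleted, read 348 and 454 units in Hox13dKO against 1831 and 1745 in wild type. Hoxa13 read 52.4 and 58.0 units in Hox13dKO against 842 and 1463 in wild type. The source of this remaining signal, which is as high as that of some members, was not tested. Epithelium was present in the dissected piece: all 22 limb ectoderm markers with a usable probe set, of 24 listed, were bright enough to test, among them Cdh1, Epcam, Krt5 and Krt14. The ratio of 5' to 3' actin signal, a sign of RNA integrity, was 0.728 and 0.771 on the Hox13dKO arrays, against 0.473 and 0.764 on the wild-type arrays, the low value being that of wild type replicate 1. The corresponding Gapdh ratio ran from 1.16 to 1.17 in Hox13dKO and from 1.23 to 1.25 in wild type.

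Among the 9 genes, Dlx1, Dlx2, Sp6 by its brightest probe set, and En1 read lower in Hox13dKO by factors of 1.58 to 1.70, Dlx5 read 1.46-fold higher, and all 4 Trp63 probe sets had higher means in Hox13dKO. None of these differences passed the test, and 1 of the Trp63 probe sets was too dim to be tested. Of the 16 probe sets 13 were bright enough to be tested, and 0 of the 13 passed an adjusted p of 0.05 in limma, where 0.207% of all probe sets tested did, 0.115% as higher and 0.0925% as lower (31 higher and 25 lower; 145 higher and 68 lower after median centring). At an unadjusted p under 0.05 there were 4 of 13, against 6.26% of all probe sets tested. These were Dlx1, Dlx2 and 1 Sp6 probe set, lower, and Dlx5, higher. After median centring the count was 1 of 13, against 5.88% of all probe sets tested. It was none of these 4 but the Trp63 probe set 1451876_a_at, with a log2 difference of 0.88 (limma adjusted p = 0.695). Both Hox13dKO arrays lay below both wild-type arrays in 6 of the 13 and above them in 3, and the groups overlapped in 4. Such separation was seen in 34.6% of all probe sets tested, with Hox13dKO below in 18.3% and above in 16.3%. The median log2 difference over the 13 was -0.27, beside -0.01 over all probe sets tested.

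**Figure D1:**
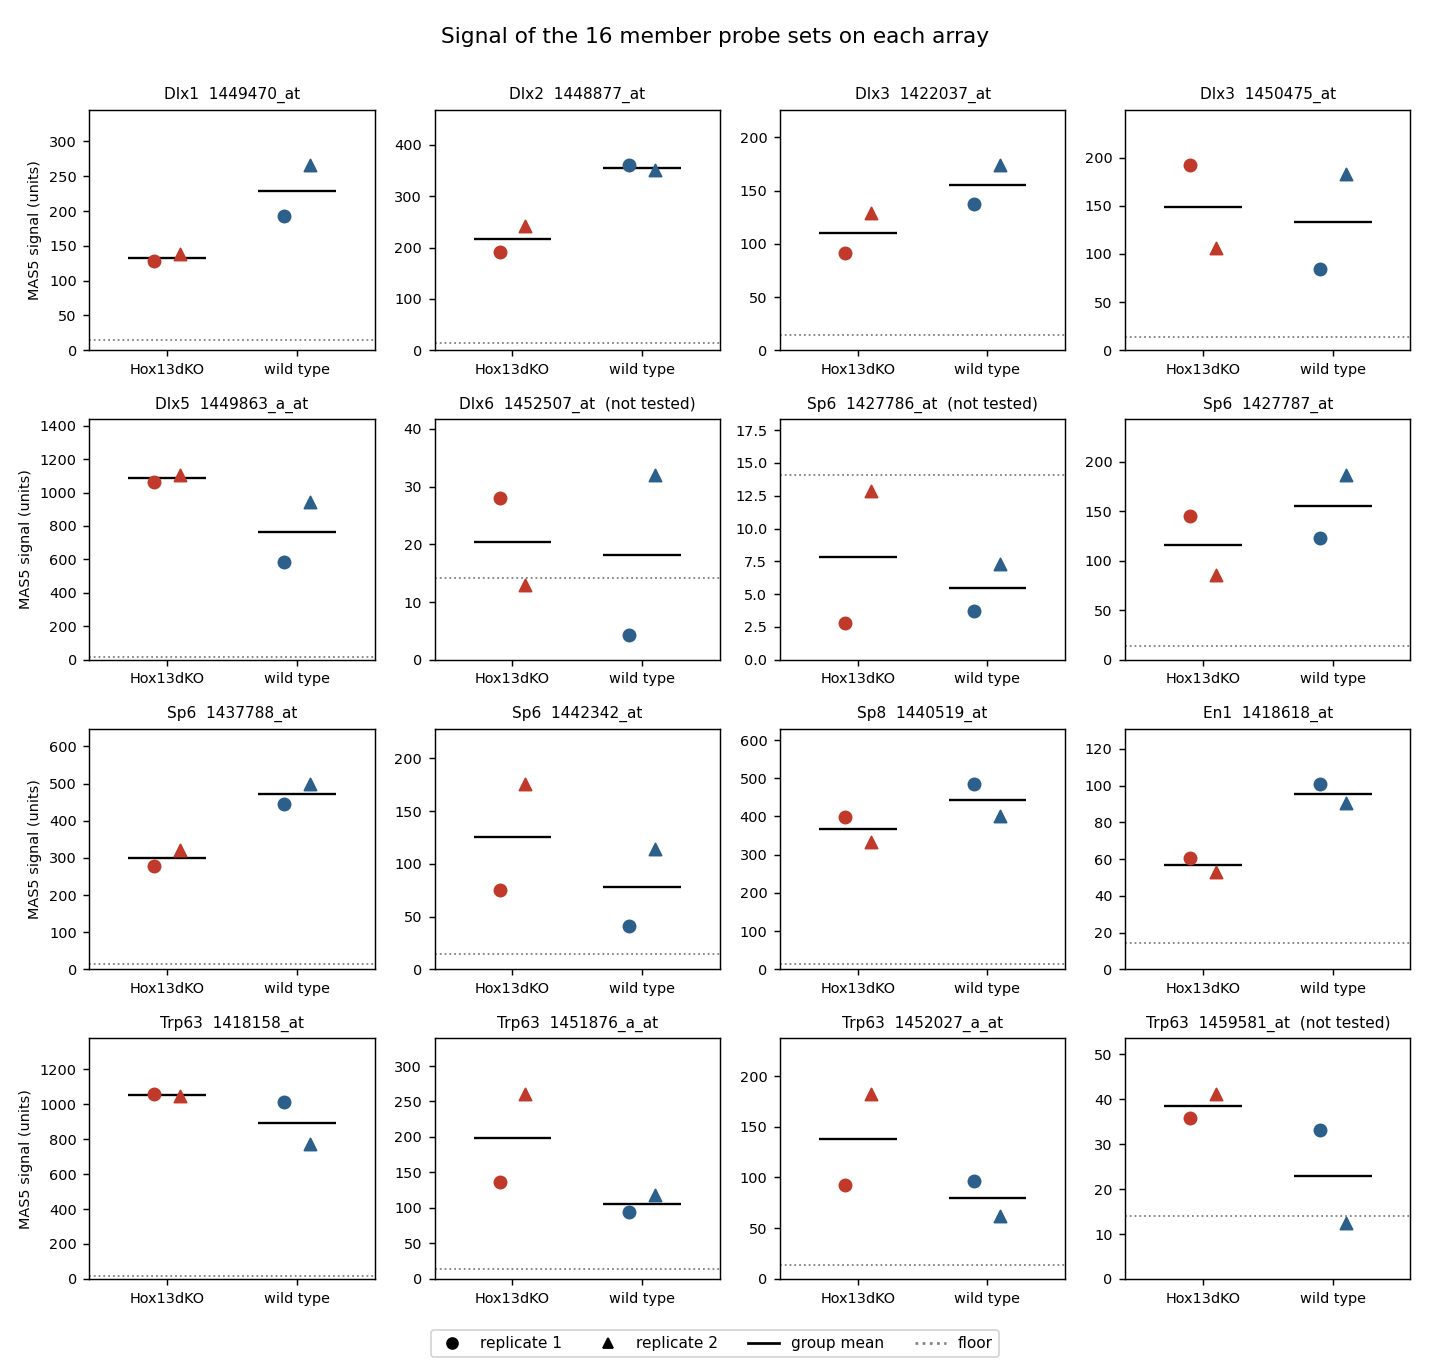
Deposited MAS5 signal (units, linear axes that start at 0) of the 16 probe sets in 2 Hox13dKO arrays (red) and 2 wild-type arrays (blue), with replicate 1 as circles, replicate 2 as triangles, a bar for each group mean and a dotted line at the floor of 14.1 units. Dlx1, Dlx2, Sp6 (1437788_at) and En1 show both red points below both blue points, while Dlx6 and 1 Sp6 probe set lie at or near the floor.

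Dlx1 and Dlx2, neighbouring homeobox genes known for patterning the branchial arches and forebrain and also expressed in limb buds, both had lower signals in Hox13dKO. Dlx1 read 128 and 138 units in Hox13dKO, against 193 and 266 in wild type. Dlx2 read 192 and 242 units in Hox13dKO, against 361 and 351 in wild type. For both genes each Hox13dKO array lay below each wild-type array, and the difference between group means exceeded the gap between replicates in either group. The log2 difference, Hox13dKO minus wild type, was -0.77 ± 0.33 for Dlx1 (SE; 95% interval -1.53 to -0.01; limma adjusted p = 0.790) and -0.72 ± 0.26 for Dlx2 (95% interval -1.32 to -0.13; adjusted p = 0.653). In bulk tissue, fewer expressing cells and less RNA per cell cannot be told apart, here or for any gene below.

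The promoter windows of this pair are shown because both genes read lower by a similar amount, though neither difference passed the test. Whether HOX13 proteins act on either gene was not tested. They are RefSeq sequences of build GRCm38.p6, running from 250 bases before to 50 bases after the gene start, 5' to 3' on the gene's own strand. Dlx1 lies at chr2:71529195-71529494 on the plus strand and Dlx2 at chr2:71546705-71547004 on the minus strand. Capitals mark CAATAAA or TCGTAAA on either strand, letters that HOX13 proteins are known to prefer in vitro, chosen after the values and sequences were known.
Dlx1: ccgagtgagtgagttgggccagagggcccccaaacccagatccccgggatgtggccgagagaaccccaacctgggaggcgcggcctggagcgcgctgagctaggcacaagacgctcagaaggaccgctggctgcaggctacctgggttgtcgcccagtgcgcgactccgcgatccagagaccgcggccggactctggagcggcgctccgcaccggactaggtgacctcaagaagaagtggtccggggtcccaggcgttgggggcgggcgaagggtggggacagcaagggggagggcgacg
Dlx2: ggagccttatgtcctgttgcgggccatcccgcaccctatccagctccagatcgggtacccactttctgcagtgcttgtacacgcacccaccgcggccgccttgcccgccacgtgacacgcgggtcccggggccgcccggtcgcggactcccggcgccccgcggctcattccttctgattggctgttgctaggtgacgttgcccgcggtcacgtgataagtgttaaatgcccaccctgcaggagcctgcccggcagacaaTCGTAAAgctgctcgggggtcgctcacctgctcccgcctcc

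The Dlx1 window held neither motif and the Dlx2 window held TCGTAAA once, starting at base 260 of 300, within the first 50 transcribed bases. Of 32851 windows of the same length, 0.597% held TCGTAAA and 4.6% held CAATAAA. The motifs do not overlap each other in these windows. Windows were on hand for 4 of the 9 genes, Dlx1, Dlx2, Sp8 and En1. In the others, 1 of the 3 Sp8 windows held CAATAAA and the En1 window held neither motif. Base composition was GC-rich in this pair, with 69.3% G and C and 27 CpG sites in the Dlx1 window and 66.3% and 29 in the Dlx2 window. A match is a description of the letters and was not tested for binding.

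Dlx5, a gene of the ridge and of early skeletal cells, had a higher mean signal in Hox13dKO. It read 1061 and 1106 units in Hox13dKO, against 586 and 946 in wild type. The groups did not overlap, but the wild-type arrays differed from each other by 0.69 on the log2 scale, more than the genotypes did (0.54 ± 0.23 SE, 95% interval 0.0026 to 1.08, limma adjusted p = 0.795). The lower of these was wild type replicate 1, the array with the low actin ratio. Without wild type replicate 1 the difference was 0.20 (adjusted p = 0.957), and without wild type replicate 2 it was 0.89 and passed (adjusted p = 0.0376). Dlx6, its partner gene, could not be tested: its single probe set read 28.0 and 12.9 units in Hox13dKO, against 4.21 and 32.1 in wild type, with 2 of 4 arrays under the floor of 14.1 units. No level or direction can be given for Dlx6 from this probe set.

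Dlx3, a ridge gene also known for roles in placenta, hair and tooth, gave 2 probe sets of opposite sign. By 1422037_at it read 91.5 and 129 units in Hox13dKO, against 137 and 174 in wild type, a log2 difference of -0.51 ± 0.39 (SE; limma adjusted p = 0.928) that was -0.26 when Hox13dKO replicate 1 was left out and -0.34 when wild type replicate 2 was. By 1450475_at it read 192 and 106 units in Hox13dKO, against 84.4 and 183 in wild type, a difference of 0.20 ± 0.50 (adjusted p = 0.979). The second spread more within each group than between them. Its sign turned when replicate 1 of Hox13dKO (-0.23) or of wild type (-0.36) was left out.

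Sp6, also called epiprofin, and Sp8 encode related zinc finger factors of the limb ectoderm. The brightest Sp6 probe set, 1437788_at, read 277 and 323 units in Hox13dKO, against 446 and 498 in wild type. Both mutant arrays lay below both wild-type arrays, and replicates within a group lay close together. The log2 difference was -0.66 ± 0.22 (SE; 95% interval -1.18 to -0.14), the lowest p among the 13 (unadjusted p = 0.0189, limma adjusted p = 0.606). The other Sp6 probe sets did not show the same separation. By 1427787_at Sp6 read 146 and 85.6 units in Hox13dKO, against 123 and 187 in wild type (log2 difference -0.44 ± 0.43, and -0.83 to -0.06 with 1 array left out). By 1442342_at it read 75.1 and 175 units in Hox13dKO, against 41.4 and 114 in wild type (0.74 ± 0.65, and 0.0066 to 1.47 with 1 array left out). In these the groups overlapped, and 1427786_at was under the floor on all 4 arrays. Where the probes of each set lie along the transcript is not known here. Sp8 read 399 and 333 units in Hox13dKO, against 484 and 401 in wild type. Its groups were separated by a margin of 2.55 units (log2 difference -0.27 ± 0.23, 95% interval -0.80 to 0.25, adjusted p = 0.934). That difference was -0.14 when either replicate 2 of Hox13dKO or replicate 1 of wild type was left out.

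**Figure D2:**
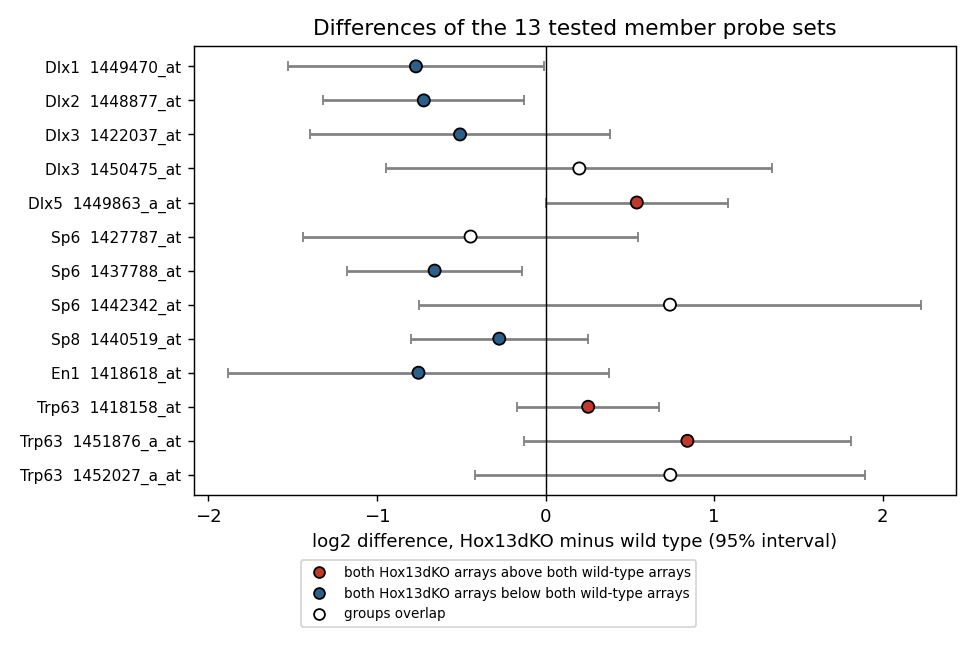
Log2 difference, Hox13dKO minus wild type, of the 13 tested probe sets (points) with 95% intervals from limma (bars), in red where both Hox13dKO arrays lay above both wild-type arrays, in blue where both lay below, and white where the groups overlapped. The intervals of Dlx1, Dlx2, Dlx5 and 1 Sp6 probe set leave out 0 before adjustment, and those of the other 9 include it.

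En1, the ventral ectoderm gene, read 60.5 and 52.95 units in Hox13dKO, against 101 and 90.5 in wild type. Both mutant arrays were lower, and the replicate gaps, 0.19 in Hox13dKO and 0.16 in wild type on the log2 scale, were among the smallest of the 13 probe sets. The log2 difference was -0.75 ± 0.49 (SE; 95% interval -1.88 to 0.37; limma adjusted p = 0.907), where the SE rests on limma's moderated spread and not on these replicates alone. Wnt7a, the dorsal ectoderm signal that En1 represses, read 133 and 176 units in Hox13dKO, against 228 and 245 in wild type (log2 difference -0.62 ± 0.31, adjusted p = 0.861). A dimmer Wnt7a probe set differed by -0.99 ± 0.53. Lmx1b, the dorsal mesenchyme gene that Wnt7a induces, differed by -0.11 ± 0.17, and by 0.68 ± 0.65 in its dimmer probe set. Bmpr1a, the BMP receptor needed in ectoderm for En1 expression, differed by -0.11 ± 0.15, and its other tested probe sets by 0.10, 0.05, -0.04 and -0.41. None of these 3 genes passed the test.

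Trp63 was measured by 4 probe sets, and the mean was higher in Hox13dKO in each. The brightest, 1418158_at, read 1060 and 1046 units in Hox13dKO, against 1011 and 773 in wild type (log2 difference 0.25 ± 0.18 SE, 95% interval -0.17 to 0.67, limma adjusted p = 0.922). By 1451876_a_at it read 137 and 261 units in Hox13dKO, against 94.4 and 118 in wild type (0.84 ± 0.42, adjusted p = 0.861). In both of these the Hox13dKO arrays were above the wild-type arrays, though by less than the gap between replicates of 1 group. By 1452027_a_at the groups overlapped, with 92.5 and 182 units in Hox13dKO and 96.9 and 62.4 in wild type (0.74 ± 0.50). The dimmest, 1459581_at, read 35.9 and 41.2 units in Hox13dKO and 33.3 and 12.4 in wild type, and was not tested. With 1 array left out the difference stayed positive but moved widely. It ran from 0.06 (wild type replicate 2 removed) to 0.45 (wild type replicate 1 removed) for 1418158_at. For 1451876_a_at it ran from 0.38 (Hox13dKO replicate 2 removed) to 1.31 (Hox13dKO replicate 1 removed), and for 1452027_a_at from 0.25 to 1.23 with the same arrays removed. Which p63 isoforms each probe set detects is not known here. Probe sets of 1 gene share their RNA and are not replicates of each other.

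Genes known to depend on p63 in epithelia were read beside it. Of 10 listed, 8 were measured, 0 passed and 5 had positive differences, with a median of 0.16 beside -0.03 over all 13072 genes measured. With the mean over each gene's probe sets in place of the brightest, the list's median was 0.35. The list of limb ectoderm markers, which shares Krt5, Krt14 and Perp with it, had medians of 0.18 by brightest and 0.06 by mean. Krt5, a keratin of basal epidermis, differed by 0.53 ± 0.24 (SE), Perp, a desmosomal membrane protein, by 0.31 ± 0.15, Dsp, a desmosomal plaque protein, by 0.42 ± 0.34, and Itga3, an epithelial integrin, by -0.43 ± 0.33. None of the 4 had a limma adjusted p below 0.829.

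Compared with the spread between replicates, the genotype difference was larger than both replicate gaps in 6 of the 13 tested probe sets, where 22.3% of all probe sets tested met that condition. All 6 had lower means in Hox13dKO: Dlx1, Dlx2, Dlx3 by 1422037_at, Sp6 by 1437788_at, Sp8 and En1. For Dlx3 and Sp8 the margin was slight, with a difference of 0.51 against a gap of 0.49 for Dlx3 and of 0.27 against 0.27 for Sp8. The probe sets with higher means in Hox13dKO, those of Dlx5, Trp63, Dlx3 and Sp6, all had a replicate gap larger than their difference. The smallest two-sided p that an exact permutation of 2 arrays against 2 can give is 0.333, so single probe sets cannot be tested that way.

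**Figure D3:**
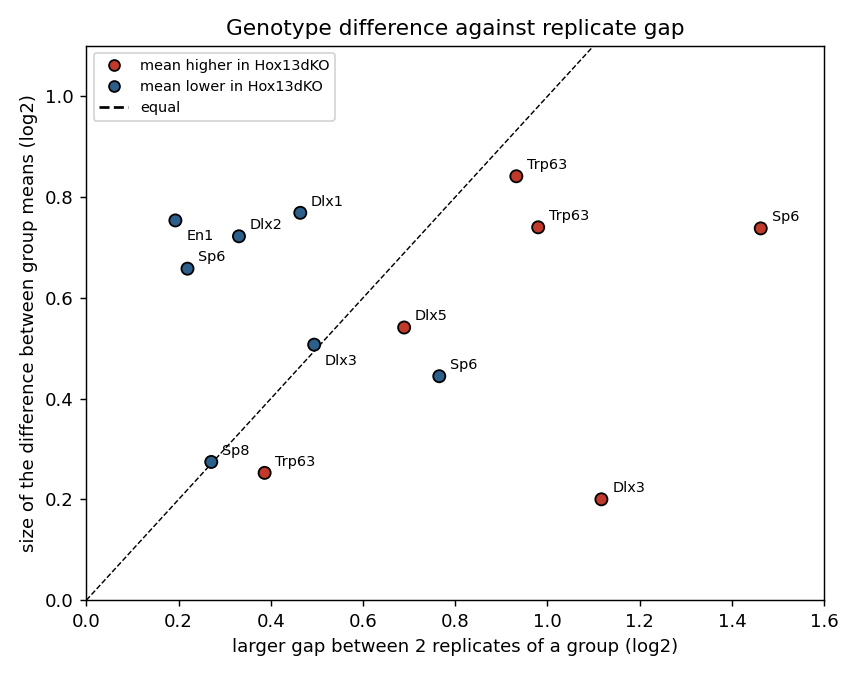
Size of the difference between group means (log2, vertical axis) against the larger of the 2 replicate gaps (log2, horizontal axis) for the 13 tested probe sets, with a dashed line where they are equal, red where the mean was higher in Hox13dKO and blue where it was lower. En1, Dlx1, Dlx2 and the brightest Sp6 probe set lie well above the line, Dlx3 and Sp8 lie just above it, and every red point lies below it.

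Signalling genes of the ridge were read beside its transcription factors. Of 14 genes measured, 0 passed and 5 had an unadjusted limma p under 0.05, where 7.25% of all 13072 genes had one. There were 8 positive differences, 6 negative ones and a median log2 difference of 0.25. The ridge FGF genes all had positive differences, with Fgf4 at 1.79 ± 0.43 (SE), Fgf8 at 0.83 ± 0.22, Fgf9 at 0.68 ± 0.31 and Fgf17 at 0.76 ± 0.49. Fgf8, the main FGF of the ridge, read 870 and 1301 units in Hox13dKO against 604 and 592 in wild type, above on both arrays (limma adjusted p = 0.336). Among BMP genes of the ridge and the tissue beneath it, Bmp4 differed by 0.73 ± 0.18, Bmp2 by -1.05 ± 0.18 (adjusted p = 0.102) and Bmp7 by -0.30 ± 0.17. The BMP-responsive homeobox genes Msx1 and Msx2 differed by -0.35 ± 0.15 and -0.22 ± 0.26. Cd44, a cell-surface glycoprotein of the ridge, differed by 0.63 ± 0.25, the Notch ligand gene Jag2 by 0.28 ± 0.26 and Rfng, which modifies Notch, by -0.10 ± 0.18. Wnt3, a Wnt ligand of the ridge, and Rspo2, a secreted Wnt agonist, differed by 0.23 ± 0.59 and -0.01 ± 0.25. Other tested probe sets turned the sign for Bmp7 (0.11 in 1 of its 2 others), while those of Fgf4 (2.14 and 0.72) and Fgf9 (1.40) kept it.

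Other members of the same gene families were measured as well, and 0 of 7 passed. Dlx4, the partner of Dlx3, differed by 0.66 ± 0.55 (SE), and by a dimmer, untested probe set it read 3.04 and 4.22 units in Hox13dKO against 45.8 and 25.5 in wild type, the opposite direction. The widely expressed factors Sp1, Sp3 and Sp4 differed by -0.01 ± 0.15, 0.08 ± 0.15 and 0.06 ± 0.29. Dimmer Sp1 probe sets differed by 0.76 and 0.38. Sp5, a Wnt target gene, differed by -0.41 ± 0.72, Sp7, a bone cell factor, by 0.16 ± 0.53, and the p53 relative Trp73 by -0.76 ± 0.79. En2 was too dim to test, at 22.7 and 28.0 units in Hox13dKO against 1.20 and 30.1 in wild type.

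Markers of the tissues in the dissected piece were compared beside the members. Over the limb ectoderm list, summed signals were 12179 and 15701 units in Hox13dKO and 13368 and 11644 in wild type, so the groups overlapped. Of its 22 measured genes 0 passed, 15 had positive and 7 negative differences, the median was 0.18 (0.06 with the mean over each gene's probe sets), and 0 were at the floor on all arrays. Krt8, a simple-epithelium keratin, differed by -0.61 ± 0.21 (SE) and Krt19, another epithelial keratin, by 1.51 ± 0.58 (limma adjusted p = 0.611 and 0.709). Over 8 limb mesenchyme genes, summed signals were 50040 and 43766 units in Hox13dKO and 43385 and 45073 in wild type, with a median difference of -0.01. Prrx1 differed by 0.48 ± 0.16, Twist2 by 0.37 ± 0.21, Lhx2 by -0.47 ± 0.17 and Prrx2 by -0.21 ± 0.12, and 0 of the 8 passed. The lower readings of Dlx1, Dlx2, Sp6 by its brightest probe set, and En1 stood beside an ectoderm list whose median was positive. That median, 0.18, was smaller than its SD between replicates, 0.23. The difference between these genes and that list was not tested.

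**Figure D4:**
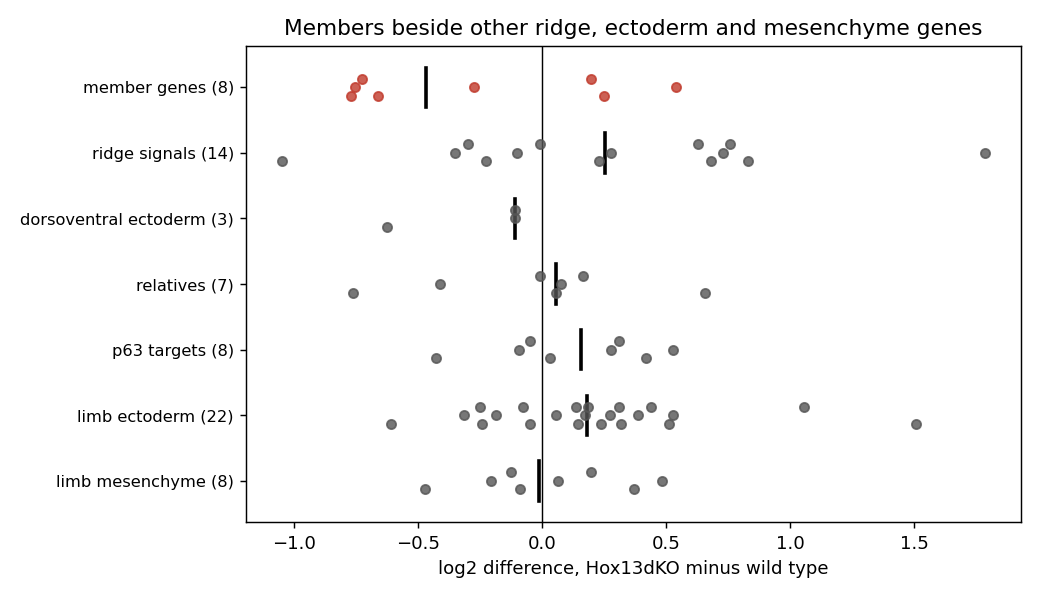
Log2 difference, Hox13dKO minus wild type, of each measured gene (points, by its brightest probe set; number of genes in brackets) in the member group (red) and in 6 other lists (grey), with a bar at each median. The member median is -0.47 over 8 genes, that of ridge signals 0.25 over 14 genes and that of limb ectoderm 0.18 over 22 genes.

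Marker genes of other cell types were read as well. Muscle genes summed to 1401 and 3244 units in Hox13dKO against 317 and 358 in wild type. Of 5 measured, 1 passed, Actc1, while Myog, Myod1 and Myf5, the myogenic factor genes, differed by 3.54 ± 0.67, 1.93 ± 0.59 and 1.25 ± 0.46 (SE). Pax3, a gene of migrating muscle precursors, differed by -1.16 ± 0.88, with overlapping groups. Actc1 made up most of the summed muscle signal in Hox13dKO, at 880 and 2252 units against 116 and 92.7 in wild type. Endothelial genes summed to 2029 and 2593 units in Hox13dKO against 1640 and 1665 in wild type, with 0 of 5 past the threshold and Cdh5 at 0.77 ± 0.22, Kdr at 0.75 ± 0.26, Pecam1 at 0.43 ± 0.27 and Tie1 at 0.25 ± 0.28. Erythroid, macrophage and Schwann or neural crest genes had 0 of 3, 0 of 3 and 0 of 2 measured genes past it, with medians of 0.33, -0.03 and 0.30. All 3 erythroid genes had positive differences, the largest being that of Alas2 (1.13 ± 0.32, limma adjusted p = 0.430). Alas2 read 1621 and 917 units in Hox13dKO against 427 and 726 in wild type. The part of these cells in the members' values was not tested.

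The pattern of the brightest Sp6 probe set over the 4 arrays was set against that of 13071 other genes, by Euclidean distance between log2 signals centred on their own mean. The 5 nearest were Shc2 (distance 0.0695), Zfp710 (0.0752), Krt8 (0.0788), Nsg1 (0.0922) and Rab17 (0.0992). Krt8 read 376 and 446 units in Hox13dKO against 575 and 679 in wild type, and it is the only limb ectoderm marker among the 5. With 4 arrays a small distance is easily met, and 58 genes lay within 0.2.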

How the data were processed

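Transcript levels were measured on Affymetrix arrays, 1 per sample, from cRNA made by a one-cycle protocol, per the labels' protocols. The deposited values are intensity per probe set on a linear scale, made by the authors with MAS5 (version not given in the sources used here), per the submitters' processing notes. The 2% trimmed mean was 500.003 on each array, so the deposited values carry a common scaling. No detection calls were used here.

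Signals under the 20th percentile of all values, 14.1 units, were set to that floor before taking log2. The 64 control probe sets were left out, and the 27022 probe sets at or above the 40th percentile of mean log2 signal (39.6 units as a geometric mean) were tested with limma 3.58.1 in R 4.3.3 (lmFit, eBayes with an intensity trend, two-sided) at a Benjamini-Hochberg adjusted p of 0.05 over all of them. The fit had 2 residual degrees of freedom, to which the prior added 6.05. Errors are SE. Of the 45101 probe sets, 34958 carried 1 gene symbol, 932 several and 9211 none, and all 9 member genes were found by gene ID in the RefSeq table of GRCm38.p6. A gene outside the members is given by its brightest probe set. Named were all member probe sets, the targeted genes, every measured gene of the ridge, dorsoventral and family lists, up to 4 genes of lowest p in the other lists and the 5 nearest patterns; further genes are named as markers of the dissected tissue or because their probe sets disagree. The members, lists and tests were chosen with earlier results of these data known.

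Same-numbered samples deviated together with r = 0.198, which with 2 arrays a group is a single value, and no label ties the numbers to a litter or batch. Alternatives were other scaling, floor, filter and variance settings, the replicate number as a block, leaving out _x_at and _s_at probe sets, and leaving out each array. On simulated arrays, 10 runs with 200 changed probe sets among 27022, limma recovered 38.4% of 2-fold and 72.7% of 4-fold changes with 13.4 false calls per run. The simulated noise was normal and independent for each probe set, with no variation shared across an array. These shares therefore need not hold for the real arrays. The number of arrays limits the precision. Figures were drawn with matplotlib 3.10.9.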

Additional observations from a re-analysis of the deposited data

How the results depend on the processing

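Of 13 tested member probe sets 0 passed, and the count was 0 under every alternative run except without wild type replicate 2, where it was 1, Dlx5 (range 0 to 1 over the fits with an array left out). Over all probe sets the count of 56 was 213 after median centring (145 higher and 68 lower, against 31 and 25), 0 with no filter (3159 at an unadjusted p under 0.05), 1 without the intensity trend, and 418 with the replicate block. It ranged from 11 to 525 with an array left out: leaving out a Hox13dKO array gave 20 (replicate 1 removed) or 11 (replicate 2 removed), and leaving out a wild-type array gave 306 (replicate 1 removed) or 525 (replicate 2 removed). The cause of these shifts was not tested. With the replicate block 0 member probe sets passed, the lowest limma adjusted p being 0.211 for Sp6. At an unadjusted p under 0.05 the block gave 5 members, beside 11.6% of all probe sets tested (6.26% without the block). That member count was 4 in the main fit, 3 with quantile normalization (6.8% of all), 3 with no floor (6.24%) and 1 after median centring (5.88%). The 1 after median centring was Trp63 by 1451876_a_at, which was not among the 4 of the main fit. It was 2 of 16 with no filter (7.01%) and 3 of 7 with the stricter filter (7.02%). Signs held in all alternatives run for every tested member probe set except Dlx3 by 1450475_at. The adjusted p ranged from 0.349 to 0.9996 for Dlx1, 0.256 to 0.964 for Dlx2, 0.211 to 1 for Sp6 by 1437788_at and 0.626 to 1 for En1. With the stricter filter 7 member probe sets were tested. With the mean over each gene's probe sets, the median of the p63 target list was 0.35 in place of 0.16 and that of the macrophage list 0.11 in place of -0.03. Both moved by more than the SD between replicates of the list's median (0.0807 and 0.0743), while the limb ectoderm median of 0.06 in place of 0.18 lay within its SD of 0.23. The other list medians moved by less than that SD under other scaling and with the mean over probe sets. Where an array is left out, the lone array of its group is assumed to vary like the other group's.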

Other observations

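Dlx1 and Dlx2 lie on the chromosome that carries the HoxD deletion, with 18 protein-coding genes between Dlx2 and Hoxd13 in RefSeq order. Of these 16 were measured, and 1 passed, Lnpk, lower. Of all 13072 genes measured 19 passed as lower, and of all probe sets tested 0.0925% did. Lnpk read 927 and 853 units in Hox13dKO against 1807 and 1875 in wild type. Its limma adjusted p was 0.0492, the last in rank of the 56 that passed. Of the 16, 10 had negative and 6 positive log2 differences with a median of -0.06. Over all 13072 genes measured, 7083 were negative and 5989 positive, with a median of -0.03. Sp3, in that interval, differed by 0.08 ± 0.15 (SE), and Evx2, beside Hoxd13, read 43.1 and 123 units in Hox13dKO against 85.4 and 164 in wild type. Pdk1, a mitochondrial kinase gene of the interval, read 1953 and 2052 units in Hox13dKO against 1265 and 946 in wild type and did not pass the test. This interval was chosen after the values of Dlx1 and Dlx2 were seen.

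Antisense and intergenic RNAs of the Dlx loci were near the limit of measurement. Dlx6os1, the long noncoding RNA of the Dlx5 and Dlx6 locus, read 55.9 and 53.3 units in Hox13dKO against 47.4 and 50.8 in wild type (limma adjusted p = 0.983). Dlx1as read 2.19 and 36.8 units in Hox13dKO against 58.7 and 36.8 in wild type and was too dim to test, as were Dlx4os and Dlx6os2.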
